A study of Mus musculus with 4 samples.

Results

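Matrix metalloproteinases (MMPs), ADAMTS proteases and their inhibitors, the TIMPs, were examined in mouse embryonic fibroblasts (MEFs) treated with pigment epithelium-derived factor (PEDF). The genes were chosen by name: all protein-coding genes whose symbol is Mmp, Adamts or Timp followed by a number. This gave 45 genes, of which 22 were Mmp genes, 19 were Adamts genes and 4 were Timp genes, out of 55487 genes counted, 21936 of them protein coding. MEFs are primary cells grown from whole embryos without their organs, so they can hold several cell types. Wild-type MEFs received recombinant PEDF purified from mammalian cells (100 ng/mL, for 24 h) or were left untreated, and a vehicle for the control is not stated. There were 2 experiments, each with 1 control library and 1 PEDF library of polyadenylated RNA, and each experiment used MEFs from its own embryos. The sample labels give the cells as passage 2, while the study's text gives passage 3. The 4 libraries are therefore 2 pairs that each share a MEF preparation. SDs given below are the spread between the 2 libraries of a group. The SEs, intervals and p-values of the fits also draw on the variance of other genes, not on the spread of the gene alone. Exact intervals of a ratio cover counting error only.

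MMPs are zinc-dependent enzymes that are made as inactive precursors and cut collagens, elastin and other matrix proteins once the propeptide is removed. Some are secreted and others, the membrane-type MMPs, stay at the cell surface. ADAMTS proteases are secreted enzymes of the same superfamily that bind the matrix, and their best known substrates are large proteoglycans such as aggrecan and versican and the propeptides of fibrillar collagens. TIMPs bind the active site of these enzymes and block it, so the balance between proteases and TIMPs sets how fast a fibroblast remodels its matrix. Mmp12, macrophage metalloelastase, is an elastin-cutting MMP that is best known from macrophages and from emphysema.

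Mmp12 lies in a row of MMP genes on mouse chromosome 9. In the genome build mm10 used by the authors (GRCm38), 9 of the 22 Mmp genes lie between positions 7272514 and 7699585, in the order Mmp13, Mmp12, Mmp1b, Mmp3, Mmp10, Mmp8, Mmp27, Mmp20 and Mmp7. Inducible MMP genes are known for a binding motif of the transcription factor AP-1 just before their start. The letters TGAGTCA were searched on both strands, TGACTCA being the same motif on the opposite strand, from 250 bases before to 50 bases after each start in RefSeq (GRCm38.p6). A promoter was listed for 31 of the 45 genes. The motif was found for 6 of the 9 genes of the row and for 0 of the 22 other genes with a promoter, and 5.20% of all 32851 promoters held it. Mmp12 had 2 listed starts, and the motif was found at the one shown. The following stretches are given because they set Mmp12 among its neighbours. The motif is in capitals, and each stretch is written 5′ to 3′ on the strand of its gene.
Mmp13 (chr9:7272469-7272510, plus strand, motif 35 bases before the start): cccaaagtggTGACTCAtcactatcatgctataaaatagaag
Mmp12 (chr9:7347320-7347361, plus strand, motif 44 bases before the start): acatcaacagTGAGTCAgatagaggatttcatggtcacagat
Mmp1b (chr9:7388088-7388129, minus strand, motif 93 bases before the start): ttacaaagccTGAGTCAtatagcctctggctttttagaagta
Mmp3 (chr9:7445766-7445807, plus strand, motif 46 bases before the start): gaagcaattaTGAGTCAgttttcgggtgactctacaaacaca
Mmp10 (chr9:7502269-7502310, plus strand, motif 63 bases before the start): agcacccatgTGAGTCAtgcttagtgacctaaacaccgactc
Mmp7 (chr9:7692017-7692058, plus strand, motif 63 bases before the start): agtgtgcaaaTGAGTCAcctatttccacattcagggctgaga
A match of letters describes the sequence only and was not tied to any measurement here. The 6 genes with the motif did not share a level in MEFs: Mmp13 was among the more abundant MMP transcripts, Mmp3, Mmp12 and Mmp10 were lower, and Mmp1b and Mmp7 had no count.

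The libraries held 14722848 to 18144640 counts, and 22135 to 22647 genes had at least 1 count. CPM (counts in 1000000 counts of a library scaled by edgeR's TMM factor, 0.983 to 1.01) is used below to compare libraries. TPM (transcripts in 1000000 transcripts, deposited by the authors, which divides by gene length) is used to compare genes. A library with 0 counts of a gene allows up to 3 counts, which is 0.168 to 0.203 CPM, and such limits cover counting error only. All 12 fibroblast markers were present, among them Col1a1, and their summed level in control and PEDF libraries was 14866 and 13429 TPM in experiment 1 and 17679 and 15189 TPM in experiment 2. Transcripts of other cell types were also present, and the lists whose sums were higher or lower with PEDF in both experiments are given beside the results they touch. In such bulk libraries, fewer cells of a type and less RNA per cell cannot be told apart.

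MEFs transcribed these genes very unevenly. Timp1, Mmp2, Mmp14, Timp2 and Timp3 together held 78.2% of the summed level of the 45 genes, or 2145 of 2743 TPM. In all, 20 genes had a mean of at least 10 TPM and 14 had a mean under 1 TPM. All 45 genes together held 0.274% of all TPM. Timp1, at 563 to 589 TPM, lay above Mmp2, at 514 to 570 TPM, in each of the 4 libraries, although the ranges overlapped, and Mmp2 lay above Mmp14 in each library.

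**Figure D1:**
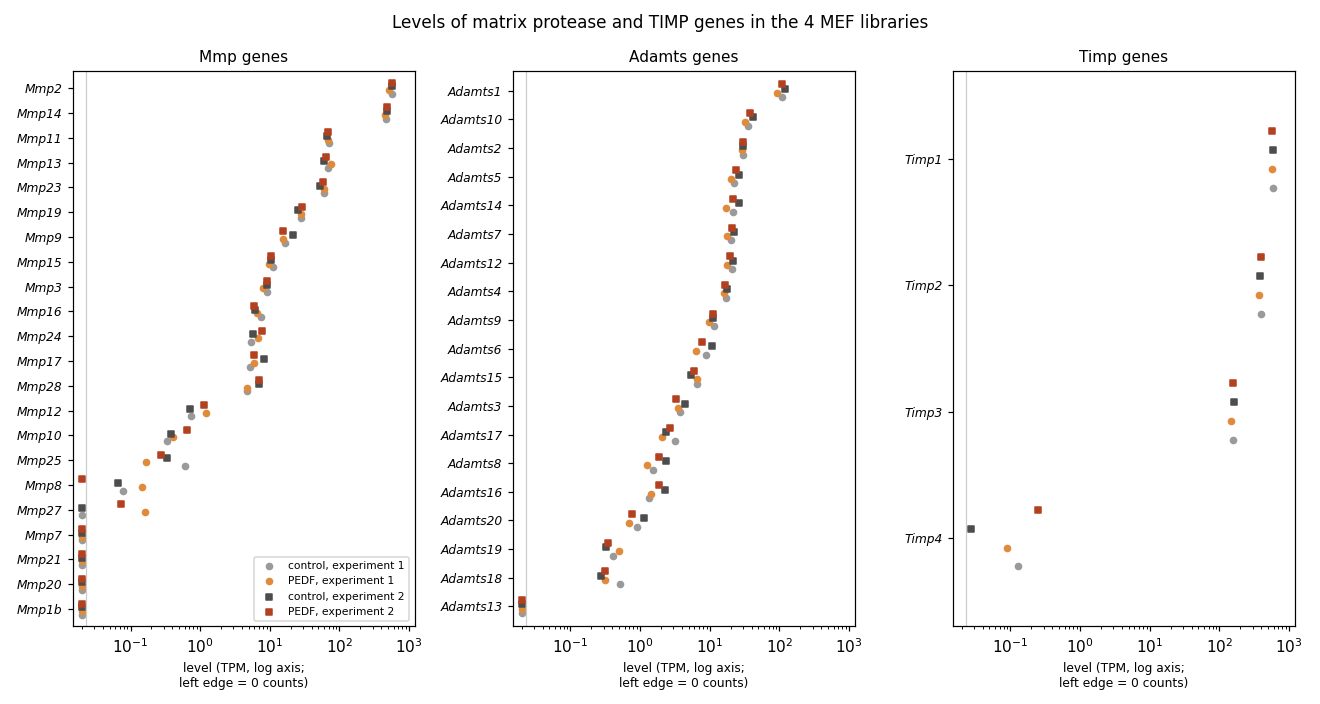
Level of each of the 45 genes in the 4 libraries (TPM, log axis), with Mmp, Adamts and Timp genes in separate panels ordered by their mean. Circles are experiment 1 and squares experiment 2, controls are grey and PEDF libraries orange or red, and points on the left edge had 0 counts. Timp1, Mmp2, Mmp14, Timp2 and Timp3 lie to the right of all other genes, and for most genes the 4 points lie close together.

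Among the gelatinases, which cut denatured collagen and the collagen of basement membranes, Mmp2 was measured at 570 and 514 TPM in control and PEDF libraries of experiment 1 and at 560 and 566 TPM in experiment 2. Mmp9 was far lower, at 16.6 and 15.5 TPM in experiment 1 and 21.6 and 15.7 TPM in experiment 2. Mmp14, the membrane-type MMP that activates the Mmp2 precursor, was measured at 468 and 444 TPM in experiment 1 and 488 and 484 TPM in experiment 2. The other membrane-type genes, Mmp15, Mmp16, Mmp17, Mmp24 and Mmp25, had means from 0.347 to 10.3 TPM. The collagenase transcript of these cells was Mmp13, at 69.2 and 74.7 TPM in experiment 1 and 60.5 and 65.1 TPM in experiment 2. The other collagenases were nearly absent, since Mmp8 had 1, 2, 1 and 0 counts (in the order control and PEDF of experiment 1, control and PEDF of experiment 2) and Mmp1b had 0 in each library. Mmp1a, listed as a polymorphic pseudogene and so not among the 45 genes, also had 0 counts in each library. Stromelysin 3, Mmp11, was measured at 66.4 to 71.9 TPM, above Mmp3 at 7.93 to 9.24 TPM and Mmp10 at 0.332 to 0.656 TPM. Among the remaining MMPs, Mmp23 was measured at 53.4 to 59.6 TPM, Mmp19 at 25.5 to 29.1 TPM and Mmp28 at 4.78 to 7.003 TPM. Mmp7, Mmp20 and Mmp21 had no count, and Mmp27 had 0, 2, 0 and 1 counts.

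Adamts genes were transcribed broadly but at lower levels. Their summed level was 274 to 345 TPM, compared with 1249 to 1336 TPM for the Mmp genes and 1080 to 1142 TPM for the Timp genes. Adamts1, which cuts aggrecan and versican, was the most abundant, at 110 and 91.9 TPM in experiment 1 and 119 and 107 TPM in experiment 2. It was followed by Adamts10, an enzyme linked to fibrillin microfibrils, at 31.7 to 41.6 TPM, and by Adamts2, which removes the propeptide of procollagens, at 29.2 to 30.2 TPM. Adamts5, Adamts14, Adamts7, Adamts12, Adamts4 and Adamts9 had means from 10.9 to 23.2 TPM. Adamts6, Adamts15, Adamts3, Adamts17, Adamts8, Adamts16, Adamts20, Adamts19 and Adamts18 had means from 0.352 to 8.51 TPM. Adamts13, the von Willebrand factor protease made mainly in the liver, had 0 counts in each library. The ratio of summed Mmp to summed Timp transcripts was 1.16 and 1.16 in control and PEDF libraries of experiment 1, and 1.17 and 1.18 in experiment 2.

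PEDF was compared with control in the 19384 genes with at least 10 counts over the 4 libraries, by edgeR's quasi-likelihood test with Benjamini-Hochberg adjustment over all of them. Of the 45 genes, 38 were tested. The 7 others were the 5 genes without counts, Mmp8 and Mmp27. Without a term for the experiment, 0 of the 38 genes had an adjusted p under 0.05, against a background of 0.00516% of all tested genes. At an unadjusted p under 0.05, 2 genes were higher with PEDF (Mmp12 and Mmp24; background 3.22%) and 4 were lower (Adamts1, Adamts6, Adamts14 and Mmp9; background 3.66%). With a term for the experiment (a block), so that each PEDF library was set against the control of its own MEF preparation, Adamts1, Adamts6 and Adamts14 fell at an adjusted p under 0.05, while 2.07% of all tested genes fell. In the same fit 0 of the 38 genes rose, against a background of 1.67%, and 10 of the 38 had an unadjusted p under 0.05 (background 14.6%). DESeq2 called 0 of these genes with the block (background 0.454%) or without it (background 0.0115%), and limma on log2(TPM + 1) called 0 as well. DESeq2 with the block gave no adjusted p to Adamts6, Adamts14 and other members, so these could not be called there. Adamts1 had an adjusted p of 0.233 in that fit. Of these genes, 1 had an unadjusted p under 0.05 in DESeq2 (background 1.46%) and 2 in DESeq2 with the block (background 1.66%). In limma it was 1 (background 4.97%), and Adamts6 was among them each time. Without control replicate 1 and without a block, edgeR called Adamts6 (adjusted p = 0.00798) and Adamts14 (adjusted p = 0.0416), both lower (background 1.07%). That fit has 1 control library, from experiment 2, which is assumed to vary like the PEDF libraries. With 1 of the other 3 libraries left out in turn, 0 were called each time.

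**Figure D2:**
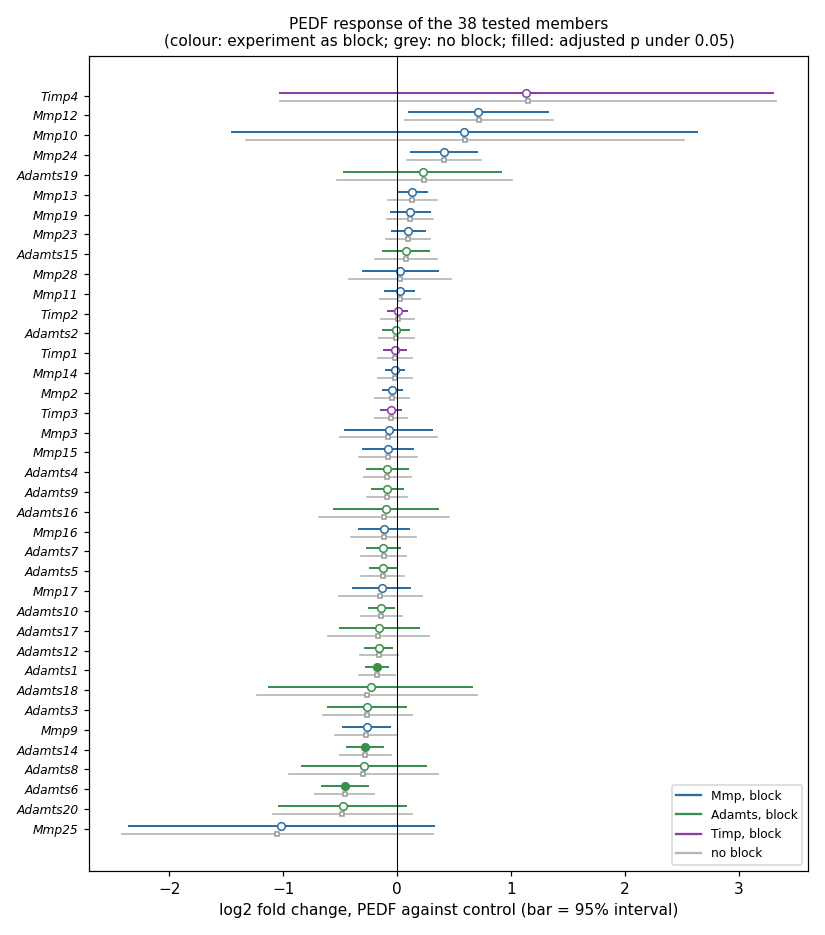
Log2 fold change of PEDF against control in the 38 tested genes, ordered by the value with the experiment as a block. Coloured circles and bars are the estimate and 95% interval with the block (blue Mmp, green Adamts, purple Timp, filled where the adjusted p was under 0.05), and grey squares and bars are those without it. The 3 filled points, Adamts1, Adamts6 and Adamts14, lie between -0.46 and -0.18, and the intervals of Timp1, Timp2, Mmp2 and Mmp14 are narrow and include 0.

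The median log2 fold change was -0.08 over the 38 genes, compared with 0.00 over all tested genes. With 1 library left out, the median of the 38 genes ranged from -0.10 (without PEDF replicate 2) to -0.03 (without control replicate 1). In both experiments, 18 of the 38 genes were lower with PEDF (background 28.8% of tested genes, all counts included) and 9 were higher (background 30.1%). Both PEDF libraries lay below both controls for 10 of the 38 genes (background 18.4%) and above them for 4 (background 18.9%). The families differed in these counts. Of 18 tested Adamts genes, 12 were lower in both experiments and 2 higher, with a median log2 fold change of -0.15. Of 16 tested Mmp genes, 4 were lower in both and 7 higher, with a median of 0.00. These are descriptions, and the difference between the families was not tested.

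**Figure D3:**
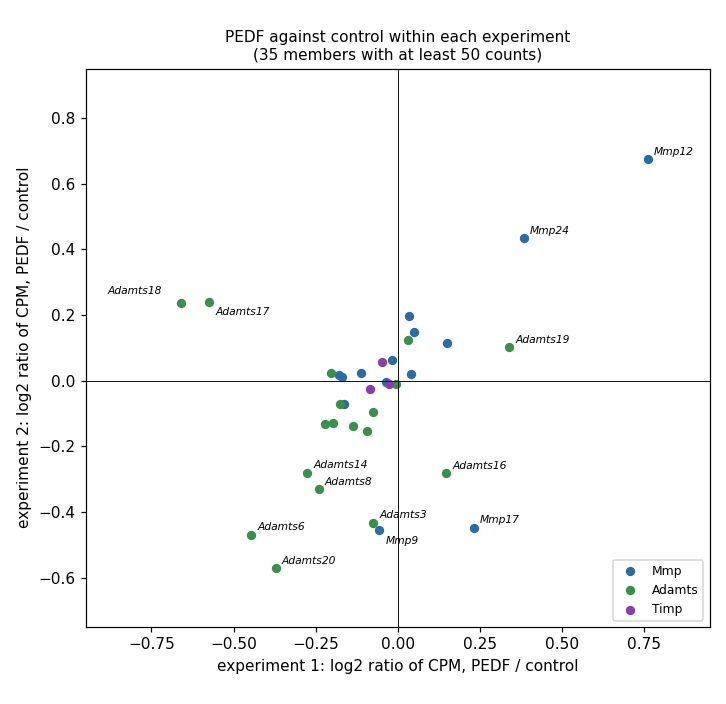
Log2 ratio of CPM, PEDF over control, in experiment 1 (x axis) and experiment 2 (y axis) for the 35 tested genes with at least 50 counts over the 4 libraries. Each point is a gene, blue for Mmp, green for Adamts and purple for Timp. Mmp12 and Mmp24 lie apart at the upper right, and Adamts6, Adamts14 and Adamts20 at the lower left. Genes with opposite signs in the 2 experiments include Adamts16, Adamts17, Adamts18 and Mmp17.

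Most differences were of the size of the difference between MEF preparations. Over the 35 genes with at least 50 counts, the median size of the log2 ratio between PEDF and control was 0.15 in experiment 1 and 0.13 in experiment 2. Between the 2 control libraries it was 0.17, and between the 2 PEDF libraries it was 0.12. Mmp17, a membrane-type MMP, is an example of a gene that did not repeat, with 12.3 and 14.5 CPM in control and PEDF of experiment 1 but 18.6 and 13.6 CPM in experiment 2. Adamts17 behaved likewise in the opposite order, with 8.81 and 5.92 CPM in experiment 1 and 6.22 and 7.35 CPM in experiment 2.

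Adamts6 had the clearest lower level with PEDF among these genes. It encodes a protease related to Adamts10 and lies on chromosome 13 (chr13:104287835-104496695, plus strand). Its level was 24.8 CPM in control and 18.2 CPM with PEDF in experiment 1, and 29.3 and 21.2 CPM in experiment 2. Both PEDF libraries lay below both controls, with means of 27.1 ± 3.20 CPM (SD, n = 2) in control and 19.7 ± 2.09 CPM (SD, n = 2) with PEDF. The ratio of PEDF to control was 0.734 (95% exact interval of counting error, 0.626 to 0.860) in experiment 1 and 0.722 (0.630 to 0.825) in experiment 2. The log2 fold change was -0.46 (SE 0.12, edgeR, unadjusted p = 0.00174, adjusted p = 0.602), and the adjusted p was 0.000742 with the block. Adamts6 was also called without a filter on low counts and without a block (adjusted p = 0.0328).

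Adamts14 and Adamts1 fell with the block by less. Adamts14, like Adamts2 and Adamts3, removes the amino-terminal propeptide of fibrillar procollagens and lies on chromosome 10 (chr10:61197112-61273438, minus strand). Its level was 39.5 and 32.6 CPM in control and PEDF of experiment 1, and 46.6 and 38.4 CPM in experiment 2. The PEDF libraries lay below the controls, but PEDF of experiment 2 was only slightly under control of experiment 1. The log2 fold change of Adamts14 was -0.28 (SE 0.10, edgeR, adjusted p = 0.696 without and 0.0210 with the block). Without the block, its estimate was -0.15 without control replicate 2, -0.17 without PEDF replicate 1 and -0.40 without PEDF replicate 2. Adamts1 lies on chromosome 16 (chr16:85793827-85803113, minus strand), and its level was 207 and 178 CPM in experiment 1 and 217 and 198 CPM in experiment 2. Both PEDF libraries lay below both controls. The log2 fold change of Adamts1 was -0.18 (SE 0.07, edgeR, adjusted p = 0.696 without and 0.0141 with the block), and its ratio of PEDF to control was 0.858 in experiment 1 and 0.912 in experiment 2. Without PEDF replicate 1 and without the block, the estimate of Adamts1 was -0.10.

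The other Adamts genes did not pass the adjusted test with or without the block. Of the 3 procollagen N-propeptidases, Adamts3 was measured at 7.25 and 6.88 CPM in control and PEDF of experiment 1 and at 8.41 and 6.23 CPM in experiment 2, and Adamts2 was nearly level at 99.9, 99.6, 97.4 and 96.7 CPM in the same order. Among the 7 proteoglycan-cutting genes, Adamts20 had the lowest estimate, with 43 and 35 counts in experiment 1 and 64 and 43 counts in experiment 2 (log2 fold change -0.48, SE 0.29, edgeR, adjusted p = 0.763). Adamts8 had 37, 33, 68 and 54 counts in control and PEDF of experiment 1 and of experiment 2 (log2 fold change -0.30), and its estimate turned to 0.05 without control replicate 2. Adamts4 and Adamts5, the aggrecanases best known from cartilage, had log2 fold changes of -0.09 and -0.13. Adamts15 and Adamts19 were the 2 Adamts genes with an estimate above 0, at 0.08 and 0.24. Adamts10 was measured at 105 and 95.6 CPM in experiment 1 and 119 and 108 CPM in experiment 2, with a log2 fold change of -0.14 (SE 0.08, edgeR, adjusted p = 0.763) and a range of -0.23 to -0.05 with 1 library left out. Adamts12 had a similar estimate of -0.16, with both PEDF libraries below both controls.

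Adamts genes are long transcripts, and in these libraries the fold change moved with transcript length. The median summed exon length was 8026 bp for the 18 tested Adamts genes, 3706.5 bp for the Mmp genes and 3614 bp for all tested genes. With the block, the median log2 fold change of genes with a mean CPM above 3 on the log2 scale was 0.09 for exon lengths of 1000 to 2000 bp, -0.01 for 4000 to 8000 bp and -0.08 for 8000 bp and longer. After this trend was removed in each library, the median of the Adamts genes was -0.09, compared with -0.15 before it. Adamts1 (log2 fold change -0.17, adjusted p = 0.0323), Adamts6 (-0.41, adjusted p = 0.00599) and Adamts14 (-0.27, adjusted p = 0.0388) remained called by edgeR, while 1.26% of all tested genes then fell. The median of the 38 genes became -0.06.

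**Figure D4:**
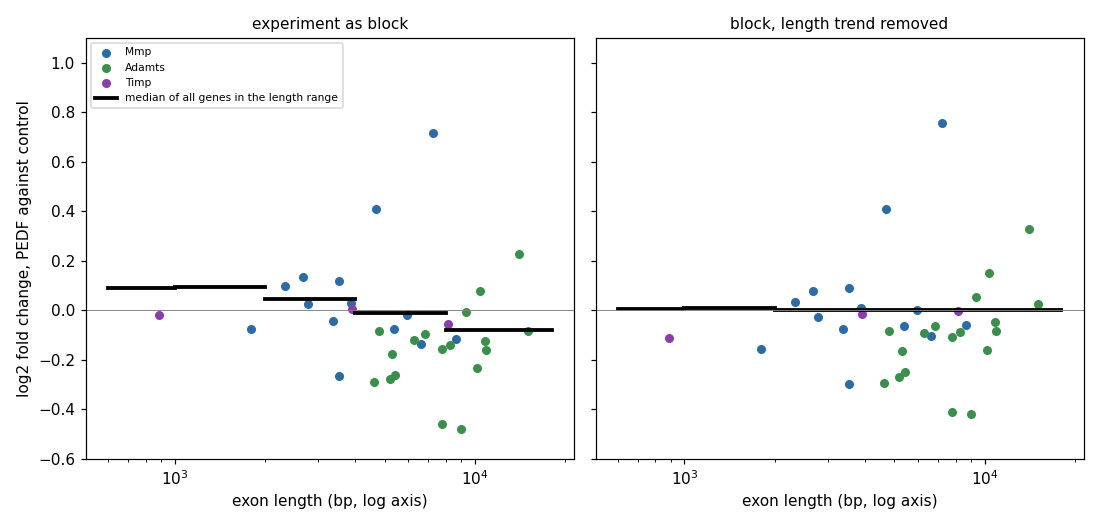
Log2 fold change of PEDF against control against summed exon length (bp, log axis) for the 35 genes with at least 50 counts, with the experiment as a block (left) and with the length trend also removed (right). Points are genes in blue (Mmp), green (Adamts) or purple (Timp), and black lines are the median of all genes with a mean CPM above 3 on the log2 scale in each length range. The black lines step from 0.09 down to -0.08 on the left and lie near 0 on the right, and Adamts6 keeps a value of -0.41 on the right.

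Some transcripts of cartilage also moved with PEDF. The summed level of 6 chondrocyte markers was 1570 and 1375 TPM in control and PEDF of experiment 1 and 1769 and 1508 TPM in experiment 2, and Col2a1, which made up most of this sum, and Acan, the aggrecan gene, fell with the block. The list did not move as a whole, since 3 of the 6 were lower (background 28.8%) and 2, Sox9 and Col9a1, were higher (background 30.1%) in both experiments. All 6 markers had counts in each library. The summed fibroblast markers, given above and made up mostly of Col1a1, were also lower in both PEDF libraries than in their own controls. Of these 12, Col1a1, Col1a2 and Pdgfrb fell with the block (background 2.07%) and Dcn and Lum rose (background 1.67%), and Col1a2 was not called with the length correction (adjusted p = 0.819 in edgeR). Skeletal muscle markers went the other way, at 363 and 395 TPM in experiment 1 and 432 and 474 TPM in experiment 2, with 4 of 5 higher in both experiments (background 30.1%) and Acta1 and Des called higher with the block (background 1.67%) but not with the length correction (adjusted p = 0.496 and 0.106 in edgeR). Endothelial markers had a low sum, at 4.34 and 4.39 TPM in experiment 1 and 4.88 and 5.14 TPM in experiment 2, with Tie1 at 0 in each library. The part of these transcripts in the Adamts values was not tested.

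Among MMPs with at least 50 counts, Mmp12 had the largest fold change. It ranked 32 of the 45 genes by mean TPM, and the gene lies on the plus strand of chromosome 9 (chr9:7344381-7369499). Its counts were 28 in control and 50 with PEDF in experiment 1, and 32 and 51 in experiment 2. Both PEDF libraries were above both controls, with means of 1.85 ± 0.0731 CPM (SD, n = 2) in control and 3.04 ± 0.251 CPM (SD, n = 2) with PEDF. The ratio of PEDF to control was 1.70 (95% exact interval of counting error, 1.047 to 2.80) in experiment 1 and 1.596 (1.01 to 2.57) in experiment 2. The log2 fold change was 0.72 (SE 0.31, 95% interval 0.07 to 1.37) with an unadjusted p of 0.0328 in edgeR. The adjusted p was 0.702, and it was 0.217 with the block and 0.252 with the block and the length correction. Mmp12 had 161 counts in all, and its difference did not pass the adjustment over all tested genes. Mmp12 shares 157 bp of exon with Mmp1b on the opposite strand, which had no count.

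Transcripts of macrophages, the cells for which Mmp12 is named, were present, and their sum was higher with PEDF in both experiments. All 14 macrophage markers had counts in each library, and their summed level was 354 and 373 TPM in control and PEDF of experiment 1 and 220 and 307 TPM in experiment 2. Of the 14, 7 were higher with PEDF in both experiments (background 30.1%) and 1, Csf1r, was lower in both (background 28.8%). Their median exon length was 1831.5 bp. The median log2 fold change of the 14 was 0.19 with the block and 0.10 with the block and the length correction. Lyz2, the macrophage lysozyme, rose with the block, from 893 to 973 counts in experiment 1 and from 469 to 822 counts in experiment 2 (log2 fold change 0.39, adjusted p = 2.01e-05 in edgeR with the block and 0.940 without it). Adgre1, the macrophage marker F4/80, had 255 and 221 counts in experiment 1 and 195 and 231 counts in experiment 2. Mmp12 had 28 and 32 counts in the control libraries of experiment 1 and experiment 2, or 1.897 and 1.79 CPM. The part of macrophage transcripts in the Mmp12 value was not tested.

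**Figure D5:**
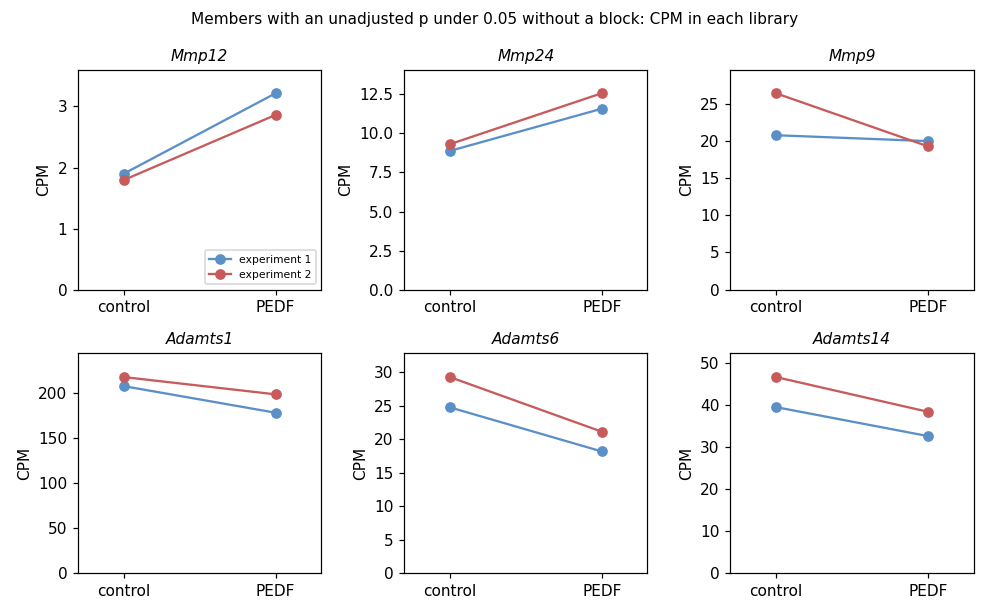
CPM in each library of the 6 genes with an unadjusted p under 0.05 without a block (axes start at 0). Each line joins control and PEDF of 1 experiment, blue for experiment 1 and red for experiment 2. Both lines end higher for Mmp12 and Mmp24 and lower for Adamts1, Adamts6 and Adamts14, while Mmp9 is nearly level in experiment 1.

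Mmp24, a membrane-type MMP, was the other gene with a higher level at an unadjusted p under 0.05. It was measured at 8.88 and 11.6 CPM in control and PEDF of experiment 1 and at 9.31 and 12.6 CPM in experiment 2, and both PEDF libraries were above both controls. Its log2 fold change was 0.41 (SE 0.15, edgeR, adjusted p = 0.696, and 0.0989 with the block). Mmp24 shares 637 bp of its 4683 bp of exon with BC029722, a gene on the opposite strand that had 1546 counts in all. Reads in the shared stretch can be told apart only if the counting used the strand, which is not stated. Mmp9, which lies outside the rule for genes given in full and was chosen after its values were seen, was measured at 20.8 and 20.01 CPM in experiment 1 and 26.5 and 19.3 CPM in experiment 2. Its difference came mainly from experiment 2 (log2 fold change -0.27, SE 0.13, edgeR, adjusted p = 0.719, and 0.154 with the block).

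The abundant MMPs were close to level. Mmp2 had 683 and 633 CPM in control and PEDF of experiment 1 and 653 and 663 CPM in experiment 2, and its log2 fold change was -0.04 (95% interval -0.19 to 0.10). Mmp14 had 991 and 966 CPM in experiment 1 and 1006 and 1003 CPM in experiment 2, with a log2 fold change of -0.02 (95% interval -0.17 to 0.13). Mmp13 was measured at 65.7 and 72.9 CPM in experiment 1 and 55.8 and 60.4 CPM in experiment 2, higher with PEDF in each experiment but with overlapping groups (log2 fold change 0.13, edgeR, adjusted p = 0.802, and 0.321 with the block). Without PEDF replicate 1 this estimate of Mmp13 was -0.01. Mmp11 (0.02), Mmp19 (0.12) and Mmp23 (0.10) had small estimates on the log2 scale, none with an adjusted p under 0.05. For Mmp19, 789 bp of exon are shared with Tmem198b on the opposite strand. Mmp10, the neighbour of Mmp3, had 3 and 4 counts in experiment 1 and 4 and 7 in experiment 2, too few to show a difference. Mmp25 had 17 and 5 counts in experiment 1 and 11 and 9 in experiment 2 and also did not pass the test.

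None of the 4 TIMP genes passed the test, with or without the block. Timp1, a secreted inhibitor, was measured at 186 and 183 CPM in control and PEDF of experiment 1 and at 179 and 178 CPM in experiment 2. Its log2 fold change was -0.02 (95% interval -0.16 to 0.13, edgeR, adjusted p = 0.972). Timp2, which also takes part in activation of Mmp2 at the cell surface, was measured at 545 and 527 CPM in experiment 1 and 518 and 539 CPM in experiment 2, moving in opposite directions (log2 fold change 0.00, 95% interval -0.14 to 0.15). Timp3, the inhibitor that binds the matrix and also blocks several ADAMTS enzymes, was measured at 458 and 433 CPM in experiment 1 and 458 and 449.5 CPM in experiment 2. Both PEDF libraries lay below both controls for Timp3, with a log2 fold change of -0.05 (95% interval -0.20 to 0.09, edgeR, adjusted p = 0.897). Timp4 was close to the limit of detection, with 4, 3, 1 and 9 counts in control and PEDF of experiment 1 and of experiment 2, and no change can be read from it. For Timp1, Timp2 and Timp3 the 95% intervals lie between -0.20 and 0.15 on the log2 scale. With the block and the length correction the estimate of Timp1, the shortest of these transcripts, was -0.11 (95% interval -0.21 to -0.01, edgeR, unadjusted p = 0.0238, adjusted p = 0.306).

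Timp1, Timp3 and Timp4 lie inside synapsin genes on the opposite strand, and for Timp3 and Timp4, which share exon with them, the counts depend on how strand was handled. Timp3 shares 1733 bp of exon with Syn3, for which 2988 and 2873 counts were listed in experiment 1 and 3569 and 3564 in experiment 2. Syn3 encodes a protein of synaptic vesicles in neurons. Syn1, which holds Timp1 without a shared exon, had 72 to 115 counts, and Syn2, which shares 90 bp of exon with Timp4, had 6 to 13. How many of the Syn3 counts were reads of Timp3 was not tested.

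Genes that activate or restrain matrix proteases were also read from the same fit. Of 17 such genes, 0 passed the adjusted test without the block (background 0.00516%), and among those called with it Serpine2 rose (background 1.67%) and Lrp1 fell (background 2.07%). Without the block, the unadjusted p was under 0.05 for 1 of the 17, Lrp1, which was lower (background 3.66%). Lrp1, the receptor that clears MMPs, ADAMTS enzymes and TIMP complexes from the cell surface, was measured at 257 and 192 TPM in control and PEDF of experiment 1 and 330 and 249 TPM in experiment 2 (log2 fold change -0.39, SE 0.04, adjusted p = 1.06e-18 in edgeR with the block, and 0.696 without). Serpine2, an inhibitor of thrombin and plasminogen activators, was measured at 156 and 162 TPM in experiment 1 and 145 and 166 TPM in experiment 2. Bsg, the surface protein also called EMMPRIN, was the most abundant at 805 to 898 TPM. Serpine2 and Lrp1 were also called, in the same directions, with the length correction.

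Relatives of these proteases were read in the same way. Of 6 ADAMTS-like genes, which lack a protease domain, Adamtsl3 fell with the block (background 2.07%; 11.6 and 9.04 TPM in experiment 1, 11.9 and 9.45 TPM in experiment 2, adjusted p = 0.0243 in edgeR) but not with the length correction (adjusted p = 0.107). Adamtsl4, at 16.8 to 19.4 TPM, and Adamtsl5, at 9.58 to 12.1 TPM, were the most abundant of them and did not pass the test. Of 17 tested genes for other matrix and surface proteases, 0 rose (background 1.67%) and 3 fell (background 2.07%) with the block. Bmp1, which removes the carboxy-terminal propeptide of procollagens, was measured at 118 and 107 TPM in experiment 1 and 154 and 128 TPM in experiment 2. Its relative Tll1 was measured at 13.2 and 10.4 TPM in experiment 1 and 16.8 and 13.2 TPM in experiment 2, and it was the 1 gene of the 3 still called with the length correction (adjusted p = 0.0418). Adam12, at 28.7 and 23.6 TPM in experiment 1 and 32.8 and 27.7 TPM in experiment 2, was the other. The most abundant of these proteases, Ctsb (250 to 277 TPM) and Htra1 (173 to 189 TPM), did not pass the test.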

How the data were processed

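RNA of 2 control and 2 PEDF-treated MEF libraries was analyzed. Per the labels and the study's methods, the authors checked reads with FastQC 0.11.7, trimmed them with Trimmomatic 0.38, aligned them to mm10 with HISAT2 2.1.0, processed them with SAMtools 1.9 and obtained the number of uniquely mapped reads of each gene from featureCounts 1.6.3. The annotation and strand setting are not given in the sources used here. The deposited counts were not normalized. The deposited TPM values divide by gene length, and how they were made is not stated. Gene lengths are summed exon lengths in GENCODE M21, which has the coordinates of 54784 of the 55487 genes and the length implied by TPM within 0.1% for 98.1% of genes checked. The planned use of a length column was replaced by these lengths, since the tables hold none.

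PEDF and control counts were fitted by edgeR 4.0.16 in R 4.3.3 (TMM, robust quasi-likelihood test, at least 10 counts in total), without a block. The labels state that MEFs of different embryos were used in the 2 experiments, and the differences between experiments correlated across 10857 genes in control and PEDF libraries (r = 0.415, over genes, not independent replicates). A second fit therefore had the experiment as a block. The length trend was a natural spline of 5 degrees of freedom, fitted on genes with a mean log2 CPM above 3 and used as an offset. Other alternatives were DESeq2 1.42.0 (its filter set to an adjusted p of 0.05 after a first run had been seen), RLE factors, other filters on low counts, limma 3.58.1 on log2(TPM + 1), and each library left out in turn. The edgeR, DESeq2 and limma fits, with and without the block where both were run, were tested on simulated data. There 200 of 19384 genes changed 4-fold, without a difference between experiments or a length trend. Of the 200, edgeR called 164 with and without the block. The simulation cannot show how the fits treat the smaller changes called here or an experiment effect.

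Genes given in full were Mmp12, all Timp genes, genes called with or without the block, the 12 most abundant, the 6 with the largest fold change at 50 or more counts, and the most abundant of each role group. From the lists of related genes, those called and the 2 most abundant are given, except for 1 result that is not reported here. The genes, lists and rule were chosen with earlier results of these data known.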

Additional observations from a re-analysis of the deposited data

How the results depend on the processing

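Across all tested genes, 1 gene had an adjusted p under 0.05 without a block. The count was 726 with the replicate block, 421 with the block and length correction, 3 in DESeq2, 119 in DESeq2 with the block, 106 without a filter on low counts, 0 with filterByExpr (1187 at an unadjusted p under 0.05), 0 with limma (964) and 8 to 332 with a library left out. Of the protease and TIMP genes, 0 were called without the block, 3 with the block, 3 with the block and length correction and 1 without a filter. With RLE factors, filterByExpr and limma, and in DESeq2 with or without the block, 0 were called. In DESeq2 with the block, members such as Adamts6, Adamts14, Mmp12 and Mmp24 had no adjusted p and could not be called. The block changed no other call among the protease and TIMP genes. Estimates near 0 changed sign. With the length correction Adamts2 was 0.0553, Mmp11 -0.0281, Mmp14 0.0015 and Timp2 -0.0148, and in limma Mmp11 was -0.00088 and Timp2 -0.0192. With a library left out, the range was -0.0299 to 0.0137 for Adamts2, -0.0453 to 0.00948 for Timp1, -0.0318 to 0.0407 for Timp2, -0.0547 to 0.10 for Mmp11, -0.00516 to 0.27 for Mmp13, -0.0467 to 0.00741 for Mmp14 and -0.58 to 0.0472 for Adamts8. Of 227 values for the 19 genes given in full, 201 kept their direction and call, 9 became significant and 17 changed sign. Values of DESeq2 with the block that had no adjusted p were counted here as not called. Mmp12 stayed above 0 in each setting (0.33 to 0.80, lowest adjusted p 0.217 in edgeR with the block), and Adamts6 below 0 (-0.57 to -0.33). The summed TPM of the 45 genes was 2743 as deposited and 2740 recomputed from counts and exon length. The cause of these differences was not tested. With 2 libraries a group, genes with few counts, such as Timp4, Mmp10 and Mmp25, could show only large differences.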
